A study of Mus musculus with 17 samples.

Results

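The genes described here encode the factors that start and elongate protein synthesis on cytoplasmic ribosomes. They were chosen by symbol, as protein-coding genes whose names begin with Eif1 to Eif6, Eef1 or Eef2, leaving out the eIF2 kinases (Eif2ak) and the Y-linked Eif2s3y. The rule names 63 genes, of which 62 have a row in the count files and 58 reached a CPM (counts scaled to a common library size) of 1 in at least 3 of the 17 libraries, among 13060 genes that did so. Of the 4 genes under that limit, Eef1a2 reached at most 0.976 CPM, Eif4e1b had no read in any library, and Eef1akmt3 and Eif3j2 were also too low. Eef1akmt4 was not analysed here.

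The libraries were made from microglia, the resident macrophages of the brain, sorted from C57BL/6 mice (C57BL/6j bom in the methods) as CD45dim CD11b+ cells and split by the integrin CD11c. There were 3 libraries of unmanipulated adult mice, 4 of neonatal CD11c- and 4 of neonatal CD11c+ cells from the first days after birth, and 3 each of CD11c- and CD11c+ cells from adult mice with symptomatic experimental autoimmune encephalomyelitis (EAE), induced with the myelin peptide MOGp35-55 and pertussis toxin. The adult controls are titled total microglia, although another label calls them CD11c negative. Each library pooled several mice, so its spread is that between pools, and p-values measure only this spread. Pools came from several separate sorts and immunizations, so CD11c- and CD11c+ libraries of the same condition may share a sort. The labels do not say which do, and the subsets were compared as independent samples. By the methods, the adult mice, including those with EAE, were female and the neonates of mixed sex, so that sex and age cannot be told apart, which bears on the X-linked Eif1ax and Eif2s3x.

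Initiation brings the small ribosomal subunit to the start codon of a messenger RNA. eIF2 carries the initiator tRNA, eIF1, eIF1A, eIF3 and eIF5 act on the scanning subunit, the eIF4 proteins recognise and unwind the capped 5′ end, and eIF5B joins the large subunit. eEF1A then delivers each aminoacyl-tRNA, the eEF1B subunits recharge eEF1A with GTP, and eEF2 moves the ribosome along. The messenger RNAs of many ribosomal proteins and elongation factors belong to a growth-regulated class that begins with a run of pyrimidines, and the kinase eEF2K slows elongation by phosphorylating eEF2.

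In the RefSeq table of promoters (GRCm38.p6), 45 of the 58 genes had a window of 250 bases before and 50 bases from an annotated start. No window was used here for Eef1akmt1, Eef1d, Eef1g, Eif1a, Eif2b3, Eif3e, Eif3h, Eif3i, Eif4e3, Eif4ebp1, Eif4ebp3, Eif4g2 and Eif6. The hexamer CACGTG, which reads the same on both strands and is bound by Myc and MiT/TFE family proteins among others, stood before a start of 11 of the 45 genes (24.4%), against 9.94% of the 9948 tested genes with a window and 6.86% of all 27025 genes with one. Of the 11 genes, Eif1b, Eif4a1, Eif4e, Eif4h and Eif5a2 did not differ from adult by the test used below. Eif4g1 and Eif5a were higher than adult in 3 and 1 of the other groups. The hexamer was found in 3 of the 6 genes with a window that were higher than adult in every other group, Eif3f, Eif3k and Eef2. It was also found in Eef2k, which was lower in every group. The 120 bases before the start of these 4 genes are shown, 5′ to 3′, with the hexamer in capitals, because the same letters precede genes that differed from adult in opposite directions.
Eif3f, chr7:108934295-108934414, plus strand: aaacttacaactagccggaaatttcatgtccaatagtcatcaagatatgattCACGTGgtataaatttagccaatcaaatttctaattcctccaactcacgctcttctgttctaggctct
Eif3k, chr7:28981889-28982008, minus strand: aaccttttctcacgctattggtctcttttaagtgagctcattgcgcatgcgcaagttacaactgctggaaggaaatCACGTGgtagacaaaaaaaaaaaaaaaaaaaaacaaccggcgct
Eef2, chr10:81176511-81176630, plus strand: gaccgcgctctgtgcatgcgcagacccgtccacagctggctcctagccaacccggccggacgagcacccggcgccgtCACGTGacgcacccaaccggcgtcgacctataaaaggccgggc
Eef2k, chr7:120842711-120842830, plus strand: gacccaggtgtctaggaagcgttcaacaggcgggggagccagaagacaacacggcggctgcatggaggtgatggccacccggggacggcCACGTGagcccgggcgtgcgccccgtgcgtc
The hexamer began 68 bases before the annotated start of Eif3f, 44 before that of Eif3k and 43 before that of Eef2. In Eef2k it began 31 bases before the first annotated start, while starts 2 and 3 had none before them in their windows. A C at the annotated start followed by 4 or more C or T bases was found in 2 of the 45 genes (4.44%), Eif3f and Eif2s3x, against 2.97% of the tested genes. A match is a description of these letters and not a binding site, and annotated starts can lie some bases away from the start that cells use.

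Total counts ranged from 5115489 to 10436066 per library, and a count of 3 corresponds to 0.2875 to 0.5865 CPM. Levels are CPM scaled by TMM. Summed over 10 microglial markers, the level was 24510 to 45380 CPM across the libraries, so that all groups carried the labelled cell type. The neutrophil markers (9 of 9 measured) summed to 6952 to 13430 CPM in EAE CD11c- libraries, against 43.5 to 81.5 in EAE CD11c+ and 920.8 to 1874 CPM in adult libraries, and 291 to 1646 and 18.5 to 24.8 CPM in CD11c- and CD11c+ libraries of neonates. The border macrophage markers (8 of 8) summed to 903 to 1319 CPM in neonatal CD11c- and 1491 to 3415 CPM in neonatal CD11c+ libraries and to at most 117 CPM elsewhere. Oligodendrocyte markers (5 of 5) summed to 93.1 to 101 CPM in adult libraries, 40.5 to 58.3 and 54.5 to 111 CPM in CD11c- and CD11c+ libraries of neonates, and 96.4 to 100.7 and 75.4 to 96.6 CPM in those of EAE. Markers of T cells, neurons and astrocytes summed to at most 22.7 CPM, and Cd3e, Cd3g and Cd2 were at 0 in adult and neonatal libraries. The part of these other cells in the results was not tested. In bulk libraries, fewer cells of a type and less RNA per cell cannot be told apart.

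Neonatal CD11c- library 17 and EAE CD11c+ library 1 stood apart from the others of their groups, with 5.10% and 2.23% of counts from mitochondrial genes, against 0.587 to 1.56% in the other 15. Leaving out either moved no fold change of these genes against adult by over 1.5 times. Without library 17, Eif3i and Eif5a were also called higher in neonatal CD11c- cells (adjusted p = 0.009 and 0.007, edgeR) and no call was lost. Without library 1, Eef1akmt1, Eef1e1, Eif1ad and Eif5a were also called higher in EAE CD11c+ cells, and Eif3a, Eif3c and Eif4g1 were no longer called. Neonatal CD11c+ library 16, with 1.56% mitochondrial counts, lay far above the other 3 of its group in Eif4a1, Eif5 (558 CPM against 243 to 262.5) and Eif1 (182 CPM against 82.3 to 87.9). Adult library 21 was the highest adult library in Eif4a1 (425 CPM against 243 and 206), Eif5 (383 against 290 and 275) and Eif1 (185 against 116 and 123).

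The first question was how the genes differ between adult microglia and the cells of the developing or inflamed brain. A gene was called higher or lower at an adjusted p of 0.01 or less in edgeR's quasi-likelihood test of all 13060 genes, with no limit on the fold change. All 4 comparisons share the 3 adult libraries. Of the 58 translation factors, 10 to 20 were called higher than in adult microglia in each comparison and 1 to 3 lower, while 30 were called in none of the 4. Among the means, passing the test or not, adult had the lowest mean of the 5 groups in 37 of the 58 genes, against 26.9% of all genes tested, and the median log2 fold change of the 58 genes was 0.28 and 0.40 in CD11c- and CD11c+ cells of neonates and 0.27 and 0.35 in those of EAE, where the median of all genes was within 0.01 of 0. EAE CD11c+ cells had the highest mean in 21 genes and neonatal CD11c+ cells in 15, against 21% and 21.8% of all genes.

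In neonatal CD11c- cells 17 of the 58 genes were called higher (29.3%, against 13.4% of all genes tested) and 2 lower (3.45%, against 11.8%). In neonatal CD11c+ cells 18 were higher (31%, against 18.7%) and 3 lower (5.17%, against 14.6%). EAE CD11c- cells had the fewest calls, with 10 higher (17.2%, against 11.2%) and 1 lower (1.72%, against 4.55%), and EAE CD11c+ cells the most, with 20 higher (34.5%, against 15.8%) and 1 lower (1.72%, against 10.6%). In all but 1 of these 72 calls, the libraries of the group did not overlap with the adult libraries. How often this held among all genes called was not counted, so it cannot be read as a trait of these genes. The counts depended on the libraries that stand apart: without libraries 1 and 17, 25, 28, 20 and 32 of the 57 genes then past the filter were called higher in these 4 comparisons (43.9, 49.1, 35.1 and 56.1%) and 5, 4, 1 and 2 lower. The share of all genes called rose as well, to 17.5, 24, 16.4 and 21% higher and 16.7, 22, 10.4 and 17.8% lower. In EAE CD11c- cells 3 and 2 genes were left without adult libraries 22 and 23, 3 without EAE CD11c- library 4 or 5, and 6 without adult library 21 or neonatal CD11c+ library 14 or 15. In EAE CD11c+ cells 13 were left without adult library 22.

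**Figure D1:**
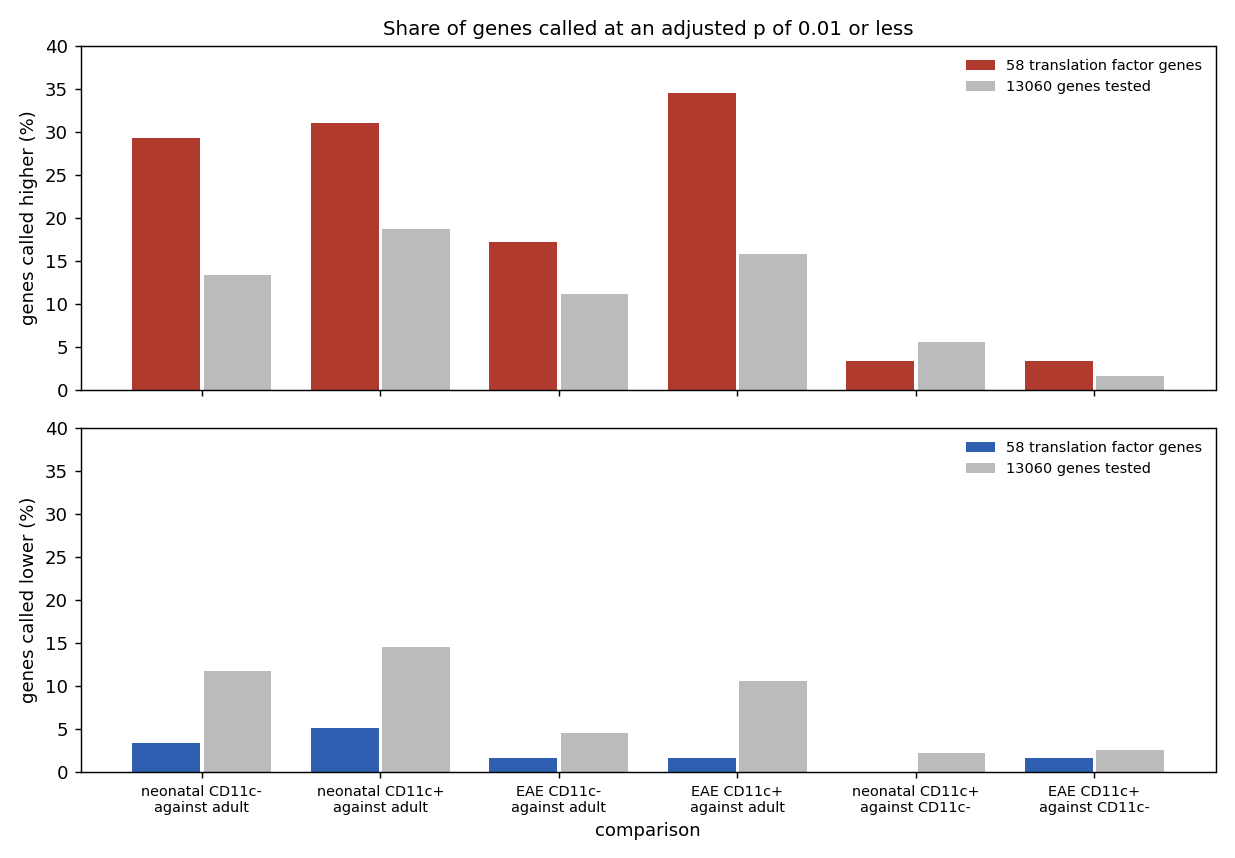
Percent of genes called higher (upper panel) and lower (lower panel) at an adjusted p of 0.01 or less in 6 comparisons, for the 58 translation factor genes (coloured bars) and the 13060 genes tested (grey bars). In the 4 comparisons with adult the coloured bars for higher genes (17.2 to 34.5%) stand above the grey ones (11.2 to 18.7%) and those for lower genes (1.72 to 5.17%) below them (4.55 to 14.6%).

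Across the 4 comparisons with adult, 9 genes were higher in every one, 5 in 3, 3 in 2 and 8 in 1, while 30 genes (51.7% of the 58 and of all genes tested alike) were called in neither direction in any of them. Of all 13060 genes, 4.21% were higher in every comparison, 3.54% in 3, 10.1% in 2 and 11.4% in 1. The 9 genes were Eef1a1, Eef1b2, Eef1d, Eef1g, Eef2, Eif3e, Eif3f, Eif3k and Eif4b. Their calls in EAE CD11c- cells were each lost in some of the 24 alternatives run: 1, 4, 12, 2, 14, 4, 15, 2 and 8, in the same order. One gene, Eef2k, was lower in every comparison (as were 1.83% of all genes), Eif4e3 was lower in both neonatal groups and Eif4a2 in neonatal CD11c+ cells.

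**Figure D2:**
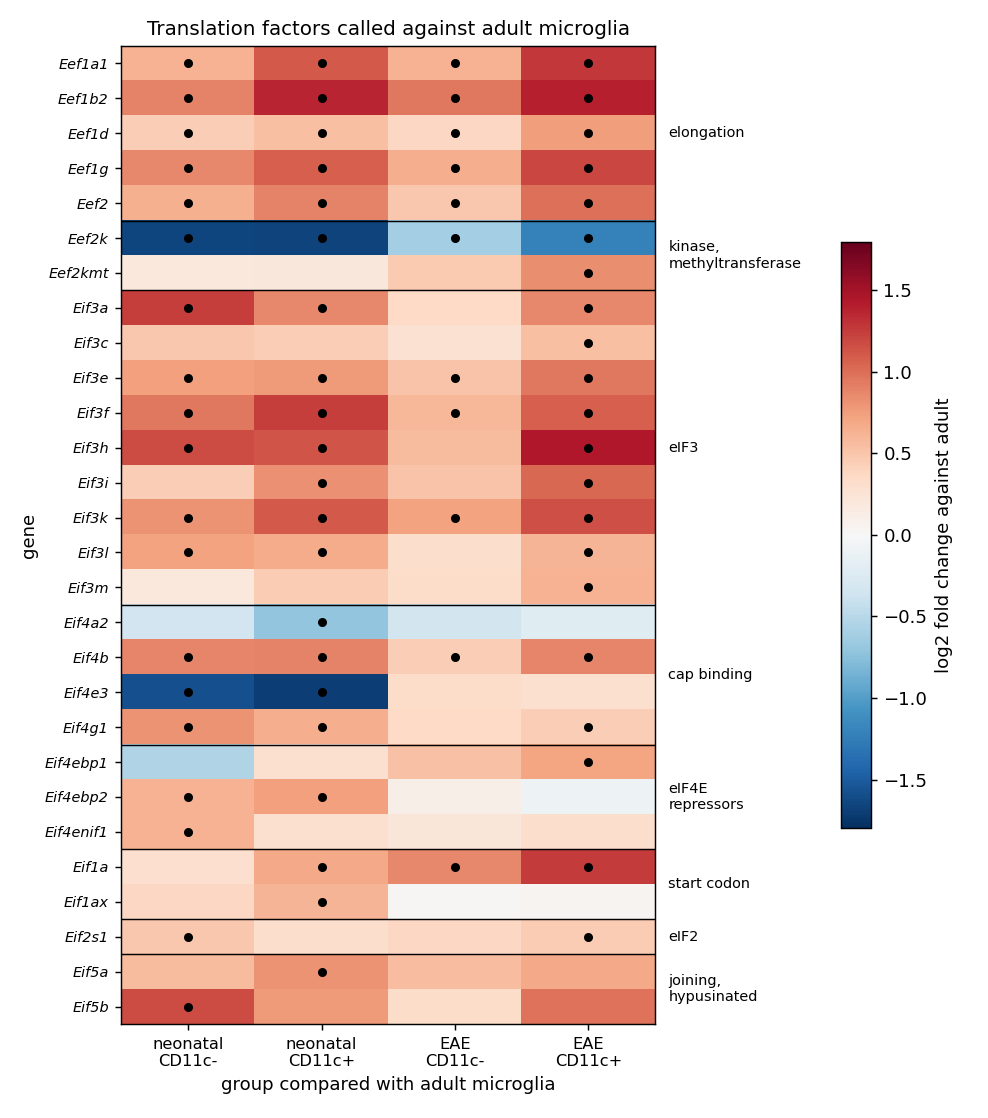
Log2 fold change against adult (colour) of the 28 translation factor genes called in at least 1 of the 4 comparisons with adult (rows, grouped by role), for each other group (columns). Black dots mark an adjusted p of 0.01 or less. All rows of the elongation block are higher in every column, Eef2k is lower in every column and Eif4e3 is lower in the 2 neonatal columns.

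Of the 6 measured elongation factor genes, 5 were called higher in each of the 4 comparisons (83.3%). Of all genes tested, 13.4 and 18.7% were called higher in CD11c- and CD11c+ cells of neonates, and 11.2 and 15.8% in those of EAE. The 5 genes were Eef1a1, Eef2 and the 3 eEF1B subunit genes Eef1b2, Eef1d and Eef1g, with fold changes on the log2 scale between 0.37 and 1.40. Eef1e1, whose product sits in the multi-tRNA synthetase complex, had log2 fold changes of 0.47 to 0.63 and did not pass the test (adjusted p from 0.038 to 0.098, edgeR quasi-likelihood test). The level summed over the 6 genes was 1771 ± 149 CPM in adult libraries (SD, n = 3), 2781 ± 218 and 3537 ± 142 CPM in CD11c- and CD11c+ libraries of neonates (n = 4 each), and 2626 ± 192 and 3862 ± 607 CPM in those of EAE (n = 3 each).

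Eef1a1 (ENSMUSG00000037742, chr9:78478449-78489151, minus strand, GRCm38), the gene of the factor that delivers tRNAs, was at 732, 669 and 562 CPM in the adult libraries, 961, 994, 982 and 1119 in CD11c- and 1391, 1377, 1360 and 1510 in CD11c+ libraries of neonates, and 1041, 1081 and 903 in CD11c- and 1355, 1672 and 1730 in CD11c+ libraries of EAE. No library of another group reached down to the adult levels, and within neonates and within EAE every CD11c+ library was above every CD11c- library. Against adult the log2 fold change was 0.63 ± 0.12 (SE) and 1.11 ± 0.12 in CD11c- and CD11c+ cells of neonates, and 0.62 ± 0.12 and 1.28 ± 0.13 in those of EAE (edgeR adjusted p = 0.00041, 7.2e-07, 0.0011 and 3.1e-07). Eef1a1 has many processed pseudogenes, so how the counting treated shared reads can affect its level.

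Eef1b2, a subunit of the exchange factor of eEF1A, was at 119, 110.5 and 91.1 CPM in the adult libraries, 129, 210.3, 212 and 242 in CD11c- and 283, 262, 269 and 291 in CD11c+ libraries of neonates, and 224, 214 and 184 in CD11c- and 186, 326 and 337 in CD11c+ libraries of EAE. Library 17 (129) and library 1 (186) were the lowest of their groups, and the log2 fold change in neonatal CD11c- cells was 0.89 ± 0.20 with all libraries and 1.04 without library 17. In EAE CD11c+ cells it was 1.40 ± 0.21, and 1.61 without library 1. Eef1g, the subunit that anchors the exchange factor complex, was at 25.1, 19.4 and 24.2 CPM in the adult libraries, 44.5, 33.2, 41.0 and 48.1 in CD11c- and 46.6, 47.2, 49.98 and 49.0 in CD11c+ libraries of neonates, and 33.4, 40.05 and 34.4 in CD11c- and 43.9, 55.4 and 57.5 in CD11c+ libraries of EAE. Every group lay above adult, by 0.87 ± 0.14 and 1.08 ± 0.14 on the log2 scale in CD11c- and CD11c+ neonatal cells and by 0.66 ± 0.15 and 1.20 ± 0.15 in EAE. Eef1d had smaller changes, of 0.37 to 0.75. In EAE CD11c- cells the calls of Eef1b2, Eef1d and Eef1g were lost in 4, 12 and 2 of the 24 alternatives, for all 3 genes when adult library 22 or EAE CD11c- library 5 was left out.

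Eef2, the translocase, was at 944, 942 and 862 CPM in the adult libraries, 1274, 1613, 1378 and 1454 in CD11c- and 1648, 1682, 1673 and 1801 in CD11c+ libraries of neonates, and 1296, 1354 and 1193 in CD11c- and 1487, 1920 and 2064 in CD11c+ libraries of EAE. All groups were above adult and the EAE CD11c- libraries were closest to it. The log2 fold change was 0.64 ± 0.12 and 0.89 ± 0.12 in the neonatal and 0.48 ± 0.12 and 0.99 ± 0.12 in the EAE groups, CD11c- first. The call in EAE CD11c- cells (adjusted p = 0.0077, edgeR) was lost in 14 of the 24 alternatives. Among them were total counts, no filter and leaving out any 1 adult or EAE CD11c- library.

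Eef2k, the gene of the kinase that inhibits eEF2, moved the other way. It was at 315, 298 and 287 CPM in the adult libraries, 82.7, 100.5, 96.3 and 101 in CD11c- and 97.7, 98.5, 86.0 and 96.1 in CD11c+ libraries of neonates, and 211, 175 and 203 in CD11c- and 148, 129.8 and 108 in CD11c+ libraries of EAE. No group overlapped with adult, and the neonatal libraries lay below all EAE libraries. The log2 fold change against adult was -1.66 ± 0.11 and -1.67 ± 0.11 in CD11c- and CD11c+ cells of neonates, and -0.61 ± 0.12 and -1.22 ± 0.12 in those of EAE (edgeR adjusted p = 3.5e-09, 2.5e-09, 0.001 and 3.8e-07). These 4 calls were kept in every alternative run. In EAE, CD11c+ cells differed from CD11c- cells by -0.61 ± 0.12 (adjusted p = 0.0034, edgeR), while in neonates the difference was -0.01 ± 0.11. The difference between these subset effects, 0.60 ± 0.16, had an adjusted p of 0.046 (edgeR) and was not called.

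Among the methyltransferases, Eef2kmt, which modifies eEF2, was called higher in EAE CD11c+ cells (16.8 ± 1.70 CPM in adult and 30.1 ± 3.44 CPM in EAE CD11c+, SD, n = 3 each, log2 fold change 0.84 ± 0.15). Of its exon bases, 23% overlap other genes, among them Alg1 on the opposite strand. Eef1akmt1 and Eef1akmt2, which modify eEF1A, were not called in any comparison.

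**Figure D3:**
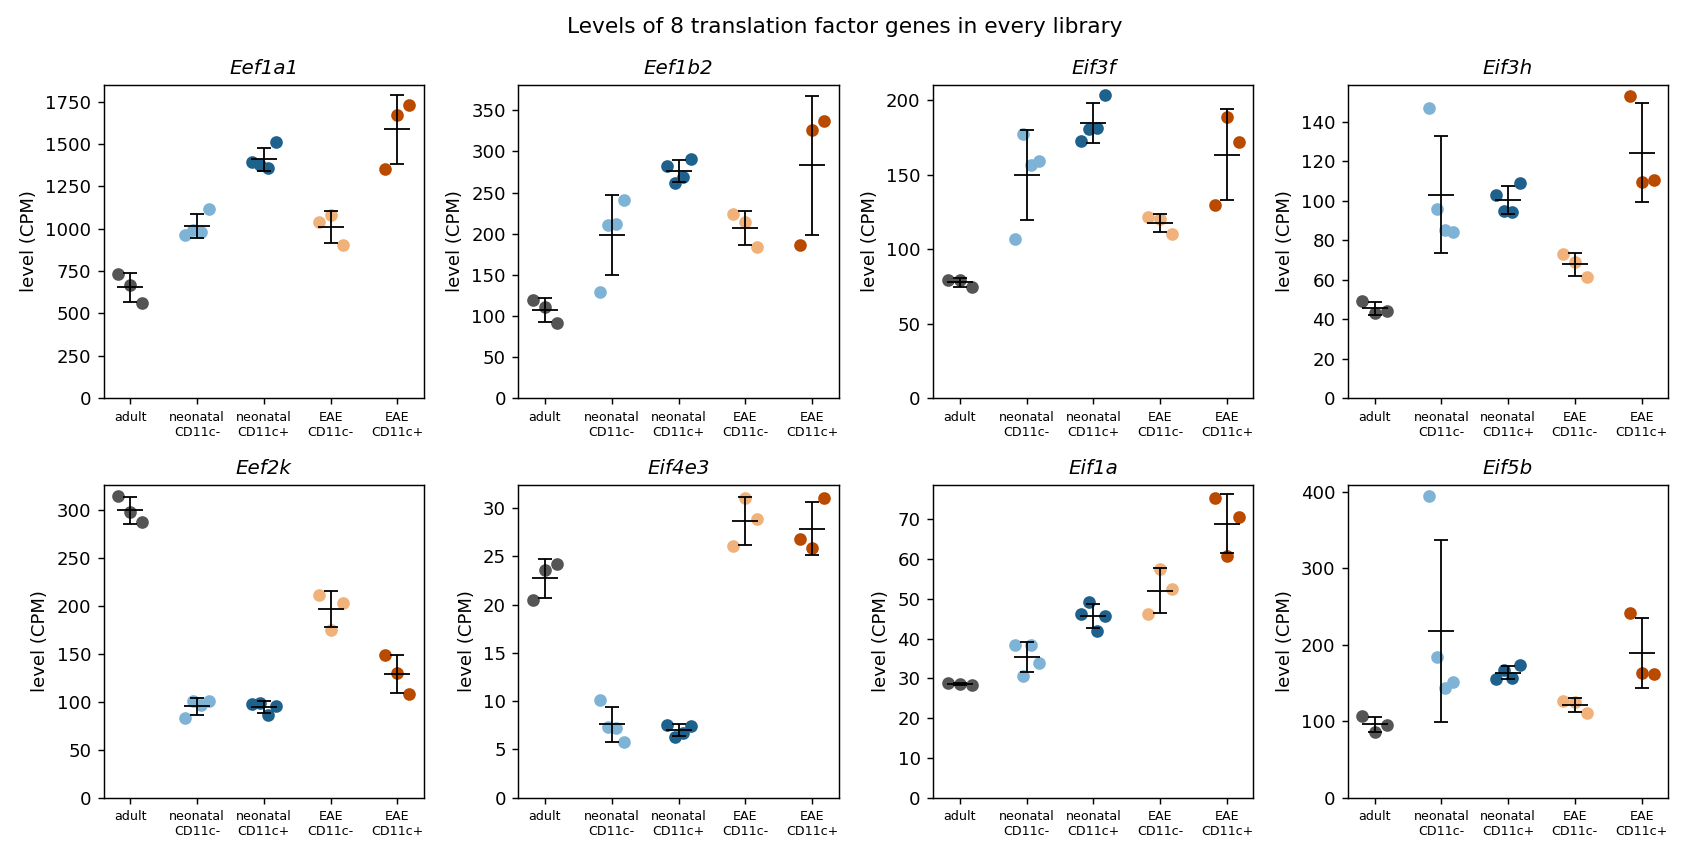
Level in CPM (linear axes from 0) of 8 genes in every library (points), with the mean and SD of each group (black bars), for 3 adult libraries, 4 of each neonatal subset and 3 of each EAE subset. Eef2k is highest in adult (287 to 315), Eif4e3 is low in both neonatal groups (5.76 to 10.1), and single libraries of the neonatal CD11c- and EAE CD11c+ groups lie far from the rest in Eef1b2, Eif3h and Eif5b.

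Of the 13 measured genes of eIF3, the scaffold of the small subunit, 6 were called higher in CD11c- and 7 in CD11c+ neonatal cells, and 3 in CD11c- and 9 in CD11c+ cells of EAE (46.2, 53.8, 23.1 and 69.2%, against 13.4, 18.7, 11.2 and 15.8% of all genes), and none was lower. Eif3e, Eif3f and Eif3k were higher in all 4 groups, Eif3a, Eif3h and Eif3l in 3, Eif3i in both CD11c+ groups, and Eif3c and Eif3m in EAE CD11c+ cells. The Eif3c call was lost in 14 of the 24 alternatives, among them leaving out any 1 adult or EAE library, and the Eif3m call in 5, among them leaving out adult library 22 or 23 or EAE CD11c+ library 2 or 3. Eif3b, Eif3d, Eif3g and Eif3j1 were not called, with log2 fold changes between -0.20 and 0.42. Eif3d shares 43.3% of its exon bases with a gene on the opposite strand, and Eif3j1 has a near-identical copy, Eif3j2. The summed level of the 13 genes was 955.8 ± 59.8 CPM in adult libraries (SD, n = 3), 1609 ± 232 and 1566 ± 45.9 CPM in CD11c- and CD11c+ libraries of neonates (n = 4 each), and 1236 ± 53.4 and 1601 ± 38.9 CPM in those of EAE (n = 3 each).

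Eif3f was at 79.3, 79.1 and 74.4 CPM in the adult libraries, 107, 177, 157 and 159 in CD11c- and 173, 180.3, 181 and 204 in CD11c+ libraries of neonates, and 121, 120.4 and 110.2 in CD11c- and 129.7, 189 and 172 in CD11c+ libraries of EAE. Its adult libraries were the lowest 3 of 17, and the log2 fold change was 0.95 ± 0.15 and 1.25 ± 0.15 in CD11c- and CD11c+ neonatal cells, and 0.60 ± 0.16 and 1.07 ± 0.16 in EAE. Library 17 (107) and library 1 (129.7) were the lowest of their groups, and without them the changes were 1.07 in neonatal CD11c- and 1.20 in EAE CD11c+ cells. The call in EAE CD11c- cells (adjusted p = 0.0097, edgeR) was lost in 15 of the 24 alternatives. Among them were total counts, a filter of 5 CPM and leaving out any 1 adult, EAE CD11c- or neonatal CD11c+ library. Eif3k was at 38.9, 42.0 and 32.2 CPM in the adult libraries, 59.5, 79.8, 67.2 and 56.7 in CD11c- and 82.2, 77.0, 76.4 and 90.3 in CD11c+ libraries of neonates, and 68.5, 64.0 and 55.1 in CD11c- and 66.6, 95.0 and 90.7 in CD11c+ libraries of EAE. Again all other libraries were above the adult ones, by 0.80 ± 0.15 and 1.11 ± 0.15 on the log2 scale in neonates and by 0.73 ± 0.16 and 1.16 ± 0.16 in EAE, CD11c- first.

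Eif3h was at 49.3, 43.1 and 44.3 CPM in the adult libraries, 147, 95.6, 85.3 and 84.4 in CD11c- and 103, 94.6, 94.2 and 109 in CD11c+ libraries of neonates, and 72.8, 69.2 and 61.1 in CD11c- and 153, 109.5 and 111 in CD11c+ libraries of EAE. Library 17 (147) and library 1 (153) were the 2 highest of all and the adult libraries the lowest, yet the log2 fold changes in neonatal CD11c- and EAE CD11c+ cells (1.18 ± 0.18 and 1.45 ± 0.19) were 0.95 and 1.25 without them and still called. Eif3a, the largest eIF3 subunit, was at 224, 201 and 201 CPM in the adult libraries, 755, 505, 335 and 388 in CD11c- and 356, 404, 368 and 387 in CD11c+ libraries of neonates, and 260.4, 298 and 245 in CD11c- and 475, 306 and 363 in CD11c+ libraries of EAE. Adult libraries were again the lowest and library 17 the highest, and the log2 fold change in neonatal CD11c- cells, 1.25 ± 0.21, was 0.96 without it. In EAE CD11c+ cells the change of 0.87 ± 0.22 was 0.66 without library 1 and no longer called (adjusted p = 0.028, edgeR).

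**Figure D4:**
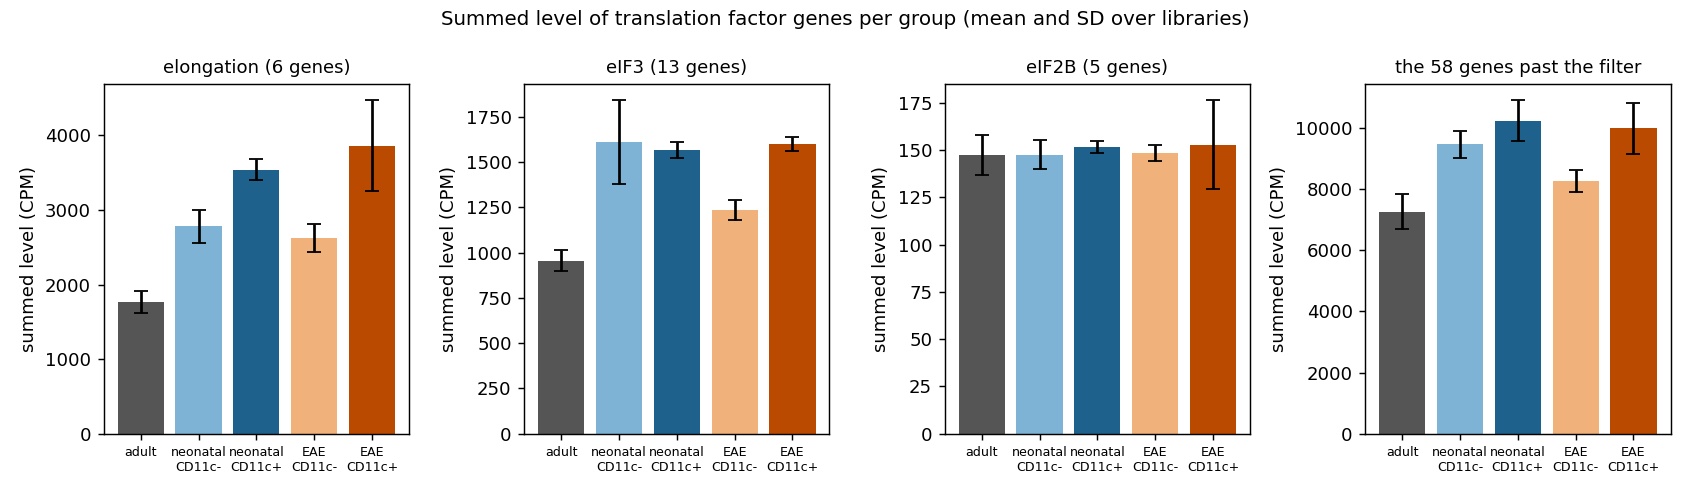
Summed level in CPM of the 6 elongation genes, the 13 eIF3 genes, the 5 eIF2B genes and the 58 genes past the filter in each group (bars, mean; error bars, SD over 3 or 4 libraries; all axes start at 0). Elongation and eIF3 sums are lowest in adult, while the eIF2B sums lie between 147 and 153 CPM in all 5 groups.

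The cap-binding and helicase genes did not move together. Of 10 measured, 2 were higher and 1 lower in CD11c- cells of neonates, 2 higher and 2 lower in their CD11c+ cells, 1 higher in CD11c- cells of EAE and 2 higher in their CD11c+ cells, shares of 10 or 20% that lie near the 13.4, 18.7, 11.2 and 15.8% of all genes called higher in these comparisons and the 11.8 and 14.6% lower in the neonatal ones. Eif4b, which stimulates the eIF4A helicase, was higher in all 4 groups (166.6 ± 7.20 CPM in adult, 308 ± 38.5 and 309 ± 6.99 CPM in neonates and 227 ± 22.0 and 306 ± 17.2 CPM in EAE, CD11c- first). Its call in EAE CD11c- cells (adjusted p = 0.0064, edgeR) was lost in 8 of the 24 alternatives, among them leaving out any 1 adult library or EAE CD11c- library 4 or 5. Eif4g1, the scaffold that ties the cap to eIF3, was higher in all groups but EAE CD11c-, by 0.81 ± 0.11, 0.66 ± 0.11 and 0.44 ± 0.12 on the log2 scale. The last of these calls (adjusted p = 0.0066, edgeR) was lost in 14 of the 24 alternatives, among them total counts, no filter and leaving out any 1 adult library.

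Eif4e3, an atypical member of the cap-binding eIF4E family, was lower in both neonatal groups. It was at 20.4, 23.6 and 24.2 CPM in the adult libraries, 10.1, 7.38, 7.26 and 5.76 in CD11c- and 7.50, 6.32, 6.67 and 7.48 in CD11c+ libraries of neonates, and 26.1, 31.1 and 28.8 in CD11c- and 26.8, 25.8 and 31.0 in CD11c+ libraries of EAE. All 8 neonatal libraries were below all 9 adult and EAE libraries. The log2 fold change against adult was -1.58 ± 0.16 and -1.70 ± 0.15 in neonatal CD11c- and CD11c+ cells (edgeR adjusted p = 3.1e-07 and 7.2e-08) and 0.33 ± 0.15 and 0.29 ± 0.15 in the EAE groups, which were not called. Of its exon bases, 14.8% overlap a gene on the same strand. Eif4e, the main cap-binding protein gene, was at 23.2, 24.5 and 23.6 CPM in the adult libraries, 36.9, 30.1, 26.3 and 32.9 in CD11c- and 34.7, 35.2, 30.8 and 28.5 in CD11c+ libraries of neonates, and 21.2, 29.0 and 31.1 in CD11c- and 21.0, 32.6 and 38.6 in CD11c+ libraries of EAE. All neonatal libraries were above adult, while an EAE library of each subset was below it. Its log2 fold changes of 0.19 to 0.44 did not pass the test (adjusted p from 0.052 to 0.53, edgeR).

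Eif4a2, a helicase gene, was at 566, 430.2 and 452 CPM in the adult libraries, 407, 351, 355 and 405 in CD11c- and 275, 282, 288 and 338 in CD11c+ libraries of neonates, and 388, 389 and 377 in CD11c- and 479, 418 and 342 in CD11c+ libraries of EAE. It was called lower only in neonatal CD11c+ cells (-0.71 ± 0.12, adjusted p = 0.00017, edgeR), where every library was below every adult one. Small nucleolar RNA genes lie within it, and 13.3% of its exon bases overlap other genes. The other helicase gene, Eif4a1, had a large spread in adult (291 ± 118 CPM, SD, n = 3) and in neonatal CD11c+ libraries (197 ± 137 CPM, n = 4). Adult library 21 was at 425 CPM and the other adult libraries at 243 and 206. Neonatal CD11c+ library 16 was at 402 and the other 3 at 121 to 136 CPM. The Eif4a1 log2 fold changes of -0.57 to -0.85 did not pass the test. Without library 16 the neonatal CD11c+ mean was 128 CPM and the log2 fold change -1.19, called lower (adjusted p = 0.0016, edgeR), against an adult mean that includes library 21. Eif4g2, an eIF4G relative without the eIF4E binding site, Eif4g3, Eif4e2 and Eif4h were not called against adult.

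The genes of the repressors of eIF4E differed in pattern. Eif4ebp1 was at 15.4, 12.4 and 18.3 CPM in the adult libraries, 11.6, 10.2, 10.1 and 10.2 in CD11c- and 21.4, 15.7, 17.6 and 20.2 in CD11c+ libraries of neonates, and 20.2, 24.1 and 22.2 in CD11c- and 16.2, 28.5 and 30.0 in CD11c+ libraries of EAE. The neonatal CD11c- libraries were the lowest 4 of 17, and the log2 fold change against adult was -0.55 ± 0.20 (adjusted p = 0.036, edgeR, not called) there and 0.70 ± 0.20 (adjusted p = 0.0097) in EAE CD11c+ cells. The latter call was lost in 18 of the 24 alternatives run. Eif4ebp2 was higher in neonatal CD11c- cells (0.62 ± 0.14, and 0.44 without library 17, at 100.5 CPM against 62.3 to 71.3 in the others) and CD11c+ cells (0.74 ± 0.14), and at 0.11 ± 0.14 and -0.09 ± 0.15 in the EAE groups. Eif4enif1, a transporter of eIF4E, was higher in neonatal CD11c- cells (0.62 ± 0.13, and 0.45 without library 17). Eif4ebp3 was at 0.34 to 0.55 CPM in the group means, close to the level of 3 counts, where a difference was not detectable at this depth.

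Among the start codon factors, Eif1a was called higher in every group but neonatal CD11c- cells. It was at 28.9, 28.6 and 28.4 CPM in the adult libraries, 38.4, 30.7, 38.5 and 33.8 in CD11c- and 46.3, 49.3, 41.9 and 45.7 in CD11c+ libraries of neonates, and 46.3, 57.4 and 52.5 in CD11c- and 75.3, 60.7 and 70.7 in CD11c+ libraries of EAE. All libraries of neonatal CD11c+ and of both EAE groups were above the adult libraries, which lay between 28.4 and 28.9 CPM, and the log2 fold changes were 0.68 ± 0.12, 0.86 ± 0.12 and 1.26 ± 0.12. In neonatal CD11c- cells it was 0.30 ± 0.12 (adjusted p = 0.048, edgeR, not called). Its X-linked paralogue Eif1ax was higher in neonatal CD11c+ cells (0.61 ± 0.14) and at 0.03 and 0.05 in the EAE groups. The 2 genes encode near-identical proteins, so that short reads may be split between them. Eif1, Eif1b and Eif5, which set the accuracy of start codon choice, were not called against adult.

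Of the eIF2 genes, Eif2s1, which encodes the subunit that stress kinases phosphorylate, was at 39.0, 39.9 and 35.6 CPM in the adult libraries, 54.1, 55.0, 45.2 and 59.3 in CD11c- and 50.1, 49.1, 46.2 and 43.9 in CD11c+ libraries of neonates, and 44.4, 49.8 and 54.1 in CD11c- and 44.4, 53.3 and 58.6 in CD11c+ libraries of EAE. The adult libraries were the lowest 3 of 17. It was called higher in neonatal CD11c- (0.48 ± 0.12) and EAE CD11c+ cells (0.45 ± 0.13), the latter in only 5 of the 24 alternatives. The neonatal call was lost in 6, among them no filter, only the groups compared and leaving out any 1 adult library. Eif2s2, Eif2s3x, Eif2a and Eif2d were not called against adult, and neither was any of the 5 genes of eIF2B, the exchange factor of eIF2, whose summed level was 147 ± 10.4 CPM in adult and 147.5 to 153 CPM in the other groups.

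Eif5b, the subunit joining factor, was at 106, 86.0 and 95.7 CPM in the adult libraries, 394, 184, 143 and 151 in CD11c- and 156, 168, 157 and 173 in CD11c+ libraries of neonates, and 127, 125 and 111 in CD11c- and 242, 163 and 162 in CD11c+ libraries of EAE. The call in neonatal CD11c- cells (1.18 ± 0.27) rested in part on library 17, at 394 CPM, the highest of all 17, although no library of another group was as low as an adult one. Without library 17 the log2 fold change was 0.72 and still called (adjusted p = 0.00071, edgeR). Eif5b lost this call in 3 of the 24 alternatives, with only the groups compared and without adult library 22 or 23. Of its exon bases, 16.8% overlap Rev1 on the opposite strand. Eif5a, which carries the amino acid hypusine, was higher in neonatal CD11c+ cells (0.81 ± 0.22), a call lost in 8 of the 24 alternatives, among them leaving out any 1 adult or neonatal CD11c+ library. Eif6, which keeps the subunits apart, was not called, and its log2 fold change in neonatal CD11c- cells was -0.12, and 0.13 without library 17 (13.5 CPM against 38.6 to 47.7 in the others). Eif5a2, Eif4a3 and Eif1ad were not called.

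The second question was how CD11c+ and CD11c- microglia differ within neonates and within EAE. With all 17 libraries, few translation factors were called. In neonates, 2 genes were higher in CD11c+ cells (3.45%, against 5.58% of all genes tested), Eef1a1 (0.47 ± 0.11) and Eif4ebp1 (0.83 ± 0.18), and 0 lower (against 2.2%). By unadjusted p under 0.05, 10 were higher and 2 lower. In EAE, 2 were higher (3.45%, against 1.7%), Eef1a1 (0.65 ± 0.12) and Eif3h (0.88 ± 0.18), and 1 was lower (1.72%, against 2.63%), Eef2k. The neonatal Eef1a1 call was lost in 11 alternatives, and without any 1 library of these 2 neonatal groups, or without EAE CD11c- library 4 or 5, the 2 calls fell to 1 or 0. The Eif3h call was lost without library 1 (0.69, adjusted p = 0.021, edgeR). The 2 higher calls in EAE fell to 0 without EAE CD11c- library 4 or 6 and to 1 without library 5, 2 or 3. In contrast, 5 genes were higher without library 1, 7 without library 17 and 11 without both. Those 11 were 19.3% of the 57 genes then past the filter, against 4.23% of all genes in that setting. The Eef2k call was lost without library 2, 3, 4 or 6. No gene was called for the difference between the subset effects in neonates and EAE, where 1.45% and 0.107% of all genes were higher and lower in the neonatal effect, and unadjusted p was under 0.05 for 3 and 8 genes. DESeq2's Wald test called 1.

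Within each neonatal library, the ratio of 2 paralogues was compared between CD11c+ and CD11c- libraries for 7 pairs by an exact permutation test, two-sided, with 4 against 4 libraries and a smallest possible p of 0.029. The log2 ratio of Eif4ebp1 to Eif4ebp2 was higher by 0.67 in CD11c+ libraries (exact p = 0.029, adjusted over the 7 pairs 0.20), which does not pass correction. The ratio of Eif4g1 to Eif4g2 was lower (-0.39, exact p = 0.057, adjusted 0.20), and for the other 5 pairs exact p was 0.34 to 0.77.

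The third question was where neonatal and EAE microglia differ. Comparing the mean of the neonatal with that of the EAE groups, 5 genes were higher in neonates (8.62%, against 16.8% of all genes tested) and 7 lower (12.1%, against 17.5%). Higher were Eif4ebp2 (0.68 ± 0.10), Eif4g2 (0.52 ± 0.09), Eif1ax (0.45 ± 0.10), Eif1b (0.44 ± 0.11) and Eif4g1 (0.34 ± 0.08). Lower were Eif4e3 (-1.95 ± 0.11), Eif4ebp1 (-0.75 ± 0.13), Eef2k (-0.74 ± 0.08), Eif1a (-0.57 ± 0.08), Eef2kmt (-0.47 ± 0.10), Eif2b3 (-0.45 ± 0.11) and Eif2d (-0.29 ± 0.08). The Eif2d call was lost in 16 of the 24 alternatives, among them total counts, no filter and libraries 1 and 17 left out, and that of Eif1b without EAE CD11c+ library 2 or 3. The 2 genes of eIF1A, Eif1a and Eif1ax, and the 2 main repressors of eIF4E, Eif4ebp1 and Eif4ebp2, were called in opposite directions. None of the 6 elongation or 13 eIF3 genes was called, with log2 fold changes from -0.09 to 0.04 and from -0.16 to 0.44. By unadjusted p under 0.05, 12 of the 58 genes were higher and 9 lower.

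Other genes of the pathway were taken from lists. Of 22 tested genes of cytosolic aminoacyl-tRNA synthetases and their cofactors, 4 were higher and 2 lower than adult in CD11c- cells of neonates, 5 and 3 in their CD11c+ cells, and 4 and 9 were higher with 0 lower in CD11c- and CD11c+ cells of EAE. These shares of 18.2, 22.7, 18.2 and 40.9% higher stand against 13.4, 18.7, 11.2 and 15.8% of all genes, and the 9.09 and 13.6% lower in neonates against 11.8 and 14.6%. Of the 57 calls of listed genes against adult, 29 were kept in every alternative and 0 reversed. Kars and Qars were higher in all 4 groups, whereas Gars and Wars were higher in both EAE groups (in CD11c+ cells by 1.21 ± 0.17 and 1.04 ± 0.19) and lower in neonates than in EAE (-0.84 ± 0.11 and -0.71 ± 0.13), and Nars and Yars were lower in both neonatal groups. The Kars, Qars, Gars and Wars calls in EAE CD11c- cells were lost in 13, 6, 3 and 5 of the 24 alternatives, and the Nars and Yars calls in neonatal CD11c- cells in 15 and 12, all with adult library 22 or 23 left out among them. The Kars call in neonatal CD11c+ cells was lost without library 16 (0.40, adjusted p = 0.017, edgeR). Of 12 genes of eIF2 kinases and the stress response they drive, 2 were higher than adult in each EAE group and none in neonates. The 16.7% in EAE lies near the 11.2 and 15.8% of all genes. The 2 were the interferon-induced kinase gene Eif2ak2 (1.499 ± 0.25 and 2.12 ± 0.26 in CD11c- and CD11c+) and the asparagine synthetase gene Asns (1.31 ± 0.33 and 1.83 ± 0.32). Comparing the mean of the neonatal with that of the EAE groups, 6 of the 12 were lower in neonates (50%, against 17.5% of all genes) and 0 higher (against 16.8%). Eif2ak3 was lower in neonatal CD11c- (-0.31 ± 0.09) and EAE CD11c+ cells (-0.36 ± 0.09), calls lost in 15 and 5 of the 24 alternatives. Neonatal CD11c+ library 16 lay far above the others of its group in Ppp1r15a (621 CPM against 69.4 to 101), Atf4 (404.5 against 141.5 to 148) and Ddit3 (43.4 against 13.5 to 14.6). Without library 16, Ppp1r15a, Atf4 and Ddit3 were called lower than adult in neonatal CD11c+ cells (-2.855, -1.02 and -1.255, edgeR adjusted p = 8.3e-06, 0.00035 and 9.7e-06).

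Of 13 tested genes of mTORC1 and of cap-directed regulation, 1 was higher and 1 lower in CD11c- cells of neonates, 0 and 3 in their CD11c+ cells, 2 and 1 in CD11c- cells of EAE and 1 and 3 in their CD11c+ cells. The shares higher, 7.69, 0, 15.4 and 7.69%, were near or below those of all genes (13.4, 18.7, 11.2 and 15.8%). The shares lower were 7.69, 23.1, 7.69 and 23.1%, against 11.8, 14.6, 4.55 and 10.6% of all genes. Each of these shares rests on only 1 or 3 of the 13 genes, so they are not read as a difference from all genes. Pdcd4, an inhibitor of eIF4A, was lower in both neonatal groups and EAE CD11c+ cells (-1.07 ± 0.15, -0.95 ± 0.15 and -0.64 ± 0.17). Rptor, which recruits mTORC1 substrates, was lower in neonatal CD11c+ and both EAE groups (-0.47 ± 0.09, -0.50 ± 0.09 and -0.93 ± 0.09). Larp1, a binder of pyrimidine-start messages, was higher in both EAE groups (0.63 ± 0.11 and 0.70 ± 0.11). Of 5 poly(A) binding genes, Pabpc1 was higher in all groups but EAE CD11c- (1.37 ± 0.21, 1.25 ± 0.21 and 1.42 ± 0.22), and by 1.06 in neonatal CD11c- cells without library 17 and 1.23 in EAE CD11c+ cells without library 1. Of 7 termination and recycling genes, Etf1, the release factor, was higher in all groups but neonatal CD11c-, and Denr in EAE CD11c+ cells, a call lost without library 1 (adjusted p = 0.019, edgeR), library 2 or any 1 adult library. Of 9 mitochondrial translation factors, Gfm1 was higher in all 4 groups (0.45 to 0.69) and Gfm2 lower in neonatal CD11c+ cells. None of the 8 genes that make hypusine or diphthamide, the modified residues of eIF5A and eEF2, was called.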

How the data were processed

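Raw counts of reads per gene in 17 libraries were deposited by the authors, who, per the methods and the submitters' processing notes, mapped single reads with STAR (written 2.3.11 in the notes) to GRCm38, counted them with HTSeq 0.5.4 and used edgeR 3.12.0. Whether counting used strand is not given in the sources used here. Of the Ensembl IDs in the files, those of GENCODE M21 were given symbols, and genes with at least 1 CPM in at least 3 libraries were kept (13060). edgeR 4.0.16 (limma 3.58.1, R 4.3.3) fitted 1 model of the 5 groups with TMM scaling, and comparisons used its quasi-likelihood test, with p-values adjusted by Benjamini-Hochberg over these genes and called at 0.01. The interaction is the CD11c effect in neonates minus that in EAE. The standard error is the size of the log2 fold change over the square root of F. Library numbers are those of the labels, which link no libraries across groups.

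The members and lists were chosen with earlier results of these data known. Levels in every library are given for up to 4 called genes per direction with the largest change in each comparison of 2 groups, and for Eef1a1, Eef2, Eif4e, Eif4ebp1 and Eif2s1. Paralogue ratios were taken on raw counts with a pseudocount of 0.5 counts, and used SciPy 1.17.1. The alternatives were DESeq2 1.42.0 size factors and its Wald test, total counts, no filter or 5 CPM, only the groups compared, and libraries left out. On simulated counts for neonatal CD11c+ against CD11c- cells (12763 genes), 81 of 100 genes changed 2-fold and 17 of 100 changed 1.5-fold were called, with 0 false calls. Floors of 3 counts cover counting error only.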

Additional observations from a re-analysis of the deposited data

Results flagged for a closer look

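For the 16 genes given in every library, the highest and lowest library of the 2 groups of 4 was compared with the others of its group (32 sets), a rule by which chance picks out about 1 set in 20. Both sets picked out belong to neonatal CD11c- library 17. Eif5b was at 393.7 CPM there and at 143.4 to 184.3 CPM in the other 3 libraries. Eif4ebp1 was at 11.59 CPM there and at 10.14 to 10.23 CPM in the others, a narrow range in a gene whose other groups spread more widely. Mitochondrial genes held 5.10% of the counts of this library, against 1.06 to 1.13% in the other 3, and their part in these values was not tested.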

How the results depend on the processing

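Of 89 calls of a gene in a comparison, 59 were kept without each library in turn and 56 under every alternative run, and 0 reversed. DESeq2's Wald test kept all 89, its size factors 87, total counts 80, no filter 80, a filter of 5 CPM 86, and only the groups compared 76. Without libraries 1 and 17, 88 were kept, and counts rose: 28, 20 and 32 genes were higher than adult in neonatal CD11c+, EAE CD11c- and EAE CD11c+ cells, 5 lower in neonatal CD11c- and 2 lower in EAE CD11c+ cells, 11 higher in EAE CD11c+ against CD11c-, 10 higher in neonates than EAE, and 1 higher in the interaction. With only the groups compared, 29 and 19 genes were higher than adult in neonatal CD11c+ and EAE CD11c- cells, and between subsets 1 was higher in neonates and 0 higher or lower in EAE. Total counts gave 1 higher between the neonatal subsets and 8 higher in neonates than EAE, and the Wald test 7 higher between the EAE subsets and 1 in the interaction. With each library left out in turn, 2 to 11 genes were higher in EAE CD11c- and 13 to 24 in EAE CD11c+ cells than in adult, 0 to 2 between the neonatal subsets, and 0 to 7 higher and 0 to 1 lower between the EAE subsets. The paralogue difference ranged over 0.565 to 0.786 for Eif4ebp1 to Eif4ebp2, where fewer libraries cannot reach an exact p under 0.05, and changed sign for Eif1 to Eif1b (-0.097 to 0.53) and Eif5a to Eif5a2 (-0.362 to 0.07). The cause of these shifts was not tested. Other scalings moved the median of all genes by under 0.1. No paired analysis was possible because the groups share no library number and the labels do not say which libraries came from the same sort. Small changes are limited by depth and by 3 or 4 pools per group: few genes changed 1.5-fold were recovered in the simulation.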
